A study of Mus musculus with 12 samples.

Results

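The regions described here carried peaks of histone H3 acetylation at lysines 9 and 14 (H3K9/14ac) and overlapped no peak of acetylation at lysine 27 (H3K27ac) in any library of the study. They were found by merging the H3K9/14ac peaks of 4 libraries where these overlapped by at least 1 bp or touched, on chromosome 1 and on chromosome 2 as far as the shortest list reached, and keeping each merged region that no peak of the 4 H3K27ac lists touched. Of 3670 H3K9/14ac regions, 937 met this rule, or 25.5% (95% interval 24.1 to 27), and the remaining 2733 overlapped an H3K27ac peak. The share was 25% on chromosome 1 (408 of 1635 regions) and 26% on chromosome 2 (529 of 2035). The regions were thus selected on measured values, the positions of the H3K9/14ac and H3K27ac peaks, so their lack of H3K27ac is a description and not a result.

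The chromatin came from FAPs (fibro-adipogenic progenitors), the muscle-resident stromal cells from which fat cells and matrix-producing fibroblasts arise, of mdx mice on the C57Bl6 background. These mice lack dystrophin and serve as a model of Duchenne muscular dystrophy. The 4 conditions were young mice given trichostatin A (young TSA), young mice given saline (young vehicle), old mice given TSA (old TSA) and old mice given saline (old vehicle), where young is 1.5 months and old is 12 months. TSA, an inhibitor of histone deacetylases, was injected into the peritoneum at 0.6 mg/kg each day for 15 days, and vehicle animals received saline on the same schedule. All groups carried the dystrophin mutation, so no healthy muscle enters the comparison, and age cannot be told apart from stage of disease. Cells were isolated by flow cytometry. The sorting gate was not given in the sources used here, nor was the number of animals per library. With 1 library per mark and condition, no test between conditions was possible, and every interval below covers counting error only. In sorted bulk chromatin, fewer cells that carry a mark and less of the mark per cell cannot be told apart.

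Acetylation of lysines 9 and 14 of histone H3 is deposited by acetyltransferases of the GNAT and related families and is concentrated around active transcription starts. H3K27ac is deposited mainly by p300 and CBP and marks active enhancers as well as active promoters, so the marks usually occur together at promoters. Histone deacetylases remove both, and FAPs of dystrophic muscle are known to respond to inhibitors of these enzymes. A missing peak in a list means that none was listed there, not that the mark was absent.

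The 4 H3K9/14ac lists were of unequal length. On the stretch they held 3336 peaks for young TSA, 2711 for young vehicle, 2474 for old TSA and 3235 for old vehicle. The H3K27ac lists ran the other way, with 4325, 5791, 5564 and 4210 peaks for the same conditions in that order. Summed H3K9/14ac tags in the stretch's peaks were 631446, 452476, 426273 and 608674 in the same order. Young TSA thus resembled old vehicle in list length and tags, and old TSA resembled young vehicle. Whether libraries were exchanged was not tested, the labels were kept, and an exchange of treatments within an age would turn the directions given below for TSA at that age and alter those for age. Of 6 FAP identity genes on the stretch, 5 had an H3K27ac peak at a gene end, against 8 of 10 endothelial, 4 of 11 macrophage, 3 of 18 lymphocyte and 3 of 18 muscle fibre genes. Of all 2825 protein-coding genes on the stretch, 1414 (50.1%) had one. A gene end here is a position within 1000 bp of either annotated end of a protein-coding gene, since the gene table gives no strand.

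Promoter sequences are shown for 3 strongly marked regions and 3 cell cycle genes. They are the RefSeq promoter windows of GRCm38.p6, 250 bases before to 50 after a listed start, written 5′ to 3′ on the strand of the gene. Dnmt3b encodes a de novo DNA methyltransferase, and its region held the most tags of all 937. Pfkfb3 encodes an enzyme that sets the rate of glycolysis, and its region came next. Chst1 encodes a carbohydrate sulfotransferase, and its window had the lowest CpG ratio of those under a region with a peak in all 4 libraries. A window counts as under a region wherever it touches that region, so part of the window can lie outside. The Chst1 region, for example, ends at chr2:92600943, inside its window. Capitals mark CpG dinucleotides in these 3 windows, which lie at chr2:153649199-153649498 on the plus strand, chr2:11553880-11554179 on the minus strand and chr2:92600867-92601166 on the plus strand.
Dnmt3b: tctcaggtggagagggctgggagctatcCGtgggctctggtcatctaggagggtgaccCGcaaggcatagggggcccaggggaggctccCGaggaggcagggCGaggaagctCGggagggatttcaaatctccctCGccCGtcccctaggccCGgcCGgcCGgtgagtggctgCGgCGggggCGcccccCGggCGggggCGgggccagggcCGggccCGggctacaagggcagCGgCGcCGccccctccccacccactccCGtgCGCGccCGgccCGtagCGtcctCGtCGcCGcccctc
Pfkfb3: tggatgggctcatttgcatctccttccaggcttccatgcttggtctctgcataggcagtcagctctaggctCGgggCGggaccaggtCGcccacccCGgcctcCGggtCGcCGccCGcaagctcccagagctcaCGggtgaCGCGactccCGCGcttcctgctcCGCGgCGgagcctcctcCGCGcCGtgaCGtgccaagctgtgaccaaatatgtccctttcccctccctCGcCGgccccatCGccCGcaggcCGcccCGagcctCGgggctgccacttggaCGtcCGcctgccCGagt
Chst1: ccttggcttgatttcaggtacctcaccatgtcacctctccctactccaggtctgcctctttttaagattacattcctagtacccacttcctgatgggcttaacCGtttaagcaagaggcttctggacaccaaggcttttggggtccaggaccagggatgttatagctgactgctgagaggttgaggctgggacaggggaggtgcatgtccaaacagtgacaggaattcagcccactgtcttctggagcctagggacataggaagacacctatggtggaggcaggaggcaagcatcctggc
The Dnmt3b and Pfkfb3 windows hold 30 CpGs each, with observed over expected CpG ratios of 0.694 and 0.851. The Chst1 window holds 1 CpG, a ratio of 0.0482.

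Bub1b, Bub1 and Cenpf encode proteins of the mitotic checkpoint and kinetochore, and are shown because cell cycle genes recur among the regions below. In these windows capitals mark CCAAT and TTTGAA on either strand (ATTGG and TTCAAA on the other), letters found in promoters of many genes expressed in dividing cells. The windows lie at chr2:118597961-118598260 (plus), chr2:127831810-127832109 (minus) and chr1:189688037-189688336 (minus). Regions cover only part of them, so marked letters can lie outside a region. The Bub1b region starts at chr2:118598117 and the Bub1 region ends at chr2:127831875.
Bub1b: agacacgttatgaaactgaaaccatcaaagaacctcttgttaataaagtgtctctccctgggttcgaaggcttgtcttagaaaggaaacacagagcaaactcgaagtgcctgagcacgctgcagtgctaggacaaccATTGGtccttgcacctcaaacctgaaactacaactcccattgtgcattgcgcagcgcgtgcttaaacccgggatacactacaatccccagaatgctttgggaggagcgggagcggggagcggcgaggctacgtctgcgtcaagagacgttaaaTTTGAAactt
Bub1: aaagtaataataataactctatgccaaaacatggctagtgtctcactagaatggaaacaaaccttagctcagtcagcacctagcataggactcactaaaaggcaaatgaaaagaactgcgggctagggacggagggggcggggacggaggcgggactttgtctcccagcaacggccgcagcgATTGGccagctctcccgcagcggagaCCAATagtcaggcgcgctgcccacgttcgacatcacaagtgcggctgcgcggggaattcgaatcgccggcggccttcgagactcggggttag
Cenpf: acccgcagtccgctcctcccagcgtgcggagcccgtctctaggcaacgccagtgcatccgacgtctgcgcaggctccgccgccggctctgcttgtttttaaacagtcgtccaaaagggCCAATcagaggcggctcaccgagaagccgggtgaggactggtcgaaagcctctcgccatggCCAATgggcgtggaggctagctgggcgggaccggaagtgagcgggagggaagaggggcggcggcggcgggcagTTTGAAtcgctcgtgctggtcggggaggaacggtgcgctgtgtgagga
Bub1b holds 1 CCAAT and 1 TTTGAA, Bub1 holds 2 CCAAT, and Cenpf holds 2 CCAAT and 1 TTTGAA, with no overlap between matches. Nusap1 and Mybl2, also described below, hold neither. Over all 289 promoter windows that touched a region without H3K27ac, 31.5% held CCAAT and 13.8% held TTTGAA, against 35.5% and 11% of the 1577 windows under other H3K9/14ac regions and 35.1% and 19.1% of all 4539 windows. A match is a description of letters and not a binding site.

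Promoters under these regions were rich in CpG. The observed over expected CpG ratio had a median of 0.702 (quartiles 0.521 to 0.872) over the 289 windows, against 0.791 (0.631 to 0.917) under H3K9/14ac regions with H3K27ac and 0.216 (0.117 to 0.355) in 2673 windows with no H3K9/14ac region. A ratio of at least 0.6 was met by 65.4% of the windows (59.6 to 70.9), by 78.2% (76.1 to 80.2) of those under the other regions and by 8.68% of those with none. The GC box GGGCGG, read on both strands, was in 67.5% of the windows, 65.4% of those under other regions and 34.9% of all. TATAAA was in 5.88%, against 4.76% and 14%. Of the windows, 14 touched regions of both kinds.

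**Figure D1:**
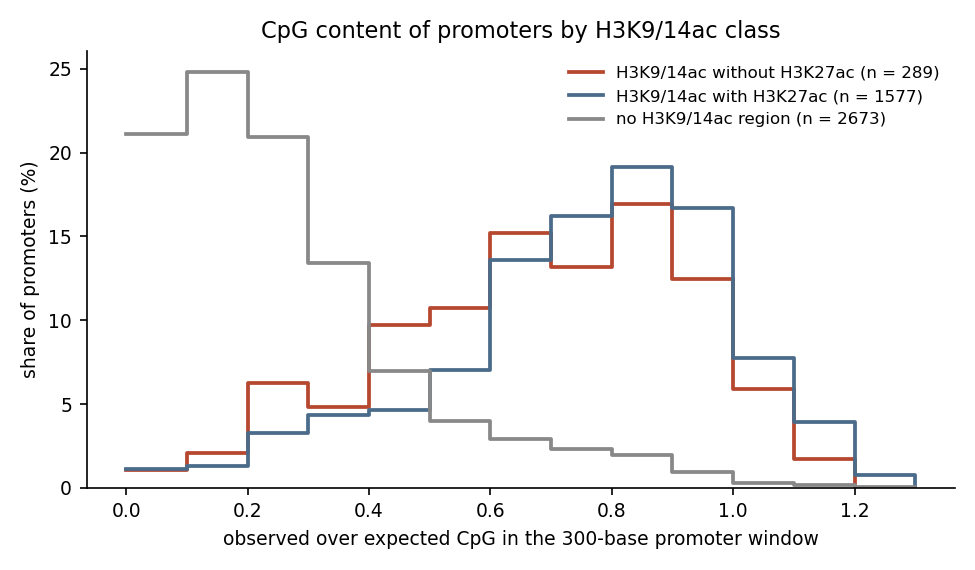
Observed over expected CpG ratio in promoter windows of 300 bases (x axis, no unit) against the share of windows of each class (y axis, percent), in bins of the ratio. The windows under H3K9/14ac without H3K27ac (n = 289) have a median of 0.702, between 0.791 for windows under H3K9/14ac with H3K27ac (n = 1577) and 0.216 for windows with no H3K9/14ac region (n = 2673).

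Regions without H3K27ac were narrow and weak as a whole. A wider merged region has more positions at which an H3K27ac peak can touch it. The part of the rule in the differences of width, tags and number of libraries was not tested. Their median width was 419 bp (quartiles 254 to 724), against 1034 bp (473 to 1652) for regions with H3K27ac, and they covered 0.509 Mb against 3.21 Mb. Tags summed over the 4 libraries had a median of 71 (40 to 188) against 513 (88 to 1178). Within single libraries the peaks held a median of 56 tags in young TSA, 53 in young vehicle, 71 in old TSA and 81.5 in old vehicle cells. Other peaks of those libraries held medians of 153, 139, 158 and 160 tags. Per 100 bp the gap was smaller, with medians of 14.3, 14.5, 12.5 and 18 tags for peaks without H3K27ac and 18.8, 17.8, 15.7 and 23 for the others. These peaks held 8% of the stretch's H3K9/14ac tags in young TSA, 3.88% in young vehicle, 5.83% in old TSA and 8.38% in old vehicle cells.

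Of the 10 regions with the most tags, all but the one in Rgs20 lay at a gene end. The Dnmt3b region (chr2:153648873-153650672, 1800 bp) held 337 tags in young TSA and 207 in young vehicle cells, and 318 in old TSA and 371 in old vehicle cells. At Pfkfb3 (chr2:11552339-11554303) the counts were 317 and 254 in young TSA and young vehicle cells and 252 and 406 in old TSA and old vehicle cells. Both regions held a peak in every library, 15589 bp and 16061 bp from the nearest H3K27ac peak. The region of Fjx1 (chr2:102449748-102452317), the gene of a secreted glycoprotein related to fly four-jointed, held 378 and 199 tags in young TSA and young vehicle and 288 and 351 in old TSA and old vehicle cells. Pacsin3, the gene of a membrane-shaping adaptor protein, had the widest region (chr2:91255665-91258485, 2821 bp), with 302 and 114 tags in young TSA and young vehicle and 244 and 386 in old TSA and old vehicle cells. In each of these 4 regions young vehicle was the lowest library or within 2 tags of it, in counts not scaled for depth. Over the 1709 regions listed in every library young vehicle was also lower. There the median log2 ratio of tags was 0.4 for young TSA over young vehicle and 0.34 for old vehicle over young vehicle.

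The other leading regions lay at genes of varied function. Hs6st1, a heparan sulfate 6-O-sulfotransferase, had 307 and 230 tags in young TSA and young vehicle cells and 174 and 332 in old TSA and old vehicle cells. Osbpl6, an oxysterol-binding protein, had 307 and 210 in young TSA and young vehicle and 189 and 314 in old TSA and old vehicle cells. Traf3ip1, a component of intraflagellar transport in cilia, had 264 and 189 in young TSA and young vehicle and 208 and 324 in old TSA and old vehicle cells. In all 3 the vehicle library exceeded TSA in old cells and TSA exceeded vehicle in young ones. Golm2, a Golgi membrane protein, had 222 and 188 tags in young TSA and young vehicle and 233 and 363 in old TSA and old vehicle cells. Frzb, a secreted Wnt antagonist, had 310 and 171 in young TSA and young vehicle and 173 and 319 in old TSA and old vehicle cells, 129801 bp from the nearest H3K27ac peak. Rgs20, a regulator of G protein signalling, was the one leading region inside a gene and away from its ends, with 211 and 87 tags in young TSA and young vehicle and 233 and 484 in old TSA and old vehicle cells. These counts are not scaled to the depth of the libraries.

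**Figure D2:**
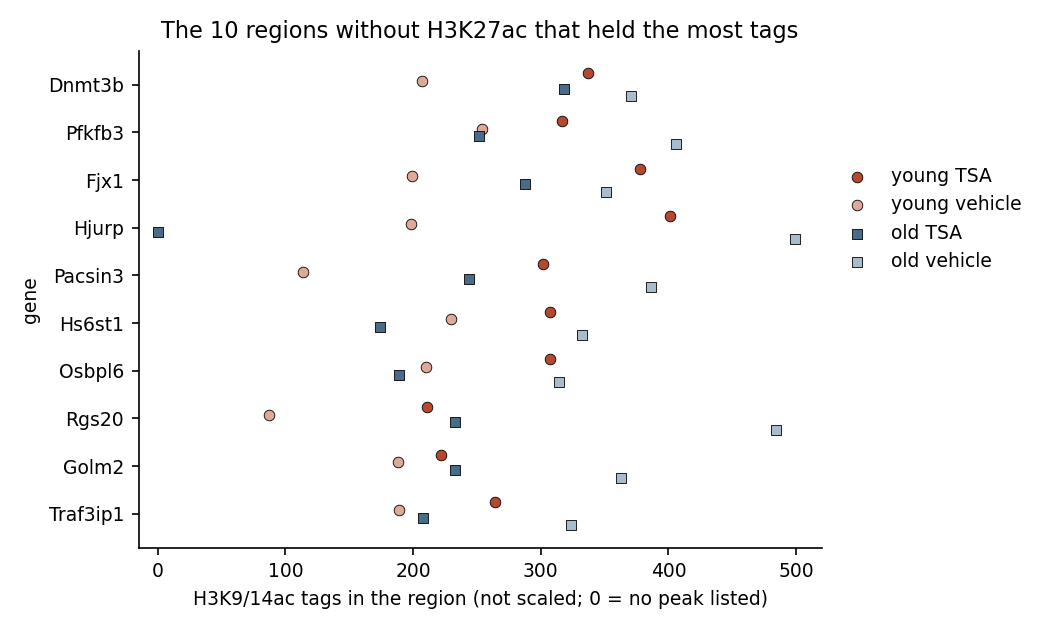
H3K9/14ac tags (x axis, counts, not scaled for depth) in the 10 regions without H3K27ac that held the most tags, named by gene (y axis), with 1 point per library and 0 where no peak was listed. The 4 points of Dnmt3b lie between 207 and 371 tags, and Hjurp stands apart with 401, 198 and 499 tags and no listed peak in old TSA cells.

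Hjurp, the chaperone that loads the centromeric histone CENP-A, had a cluster of 8 such regions in and next to the gene, with 1 H3K27ac peak in the same window. Its main region (chr1:88258995-88260617) held 401 tags in young TSA, 198 in young vehicle and 499 in old vehicle cells, and no peak was listed in old TSA cells. Of the 8 regions, 4 held a peak in young TSA, 1 in young vehicle, 0 in old TSA and 6 in old vehicle cells. Part of the cluster also lies in Mroh2a, which overlaps Hjurp. Some of its regions held many tags for their width, as 56 tags in 174 bp in young TSA and 82 in 207 bp in old vehicle cells. Peaks without H3K27ac held medians of 14.3 and 18 tags per 100 bp in these libraries. The inputs were not used, so the background at this locus was not tested. Rxra, the gene of a retinoid receptor that pairs with PPARG in fat cell formation, had 9 such regions and 13 H3K27ac peaks, with 4, 0, 1 and 5 of the 9 in young TSA, young vehicle, old TSA and old vehicle cells. Gata3, a transcription factor gene, had 4 regions and 0 H3K27ac peaks. The strongest (chr2:9878782-9879798) held 163 and 73 tags in young TSA and young vehicle and 41 and 116 in old TSA and old vehicle cells. Of 2825 protein-coding genes on the stretch, 587 (20.8%) had at least 1 such region in the gene or within 1000 bp, and 443 of these had exactly 1.

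By location, 346 regions (36.9%, 33.8 to 40.1) lay at a gene end, 403 (43%) inside a gene away from its ends and 188 (20.1%) outside protein-coding genes. Of the regions with H3K27ac, 50.2% (48.3 to 52.1) lay at a gene end, 37.5% inside and 12.3% outside. Measured to listed transcription starts instead, an alternative chosen after seeing the data, the shares were 37.5% and 50.8%. The lower share at gene ends turned round once regions were split by the tags of their highest library, a split also chosen after seeing the data. Under 50 tags, 21.9% (17.8 to 26.5) of regions without H3K27ac and 13.2% (10.2 to 16.8) of the others were at a gene end. From 50 to 99 tags the shares were 34.4% and 17.2%, and from 100 to under 200 tags 59.6% (52.3 to 66.6) and 36.7% (32 to 41.6). At 200 tags or more they were 83.3% (35 of 42) and 81.6%, within counting error of each other. Only 42 regions without H3K27ac reached 200 tags, against 1305 of the others.

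Distance to H3K27ac, which the rule used, varied widely. The median was 13867 bp (quartiles 2759 to 42166), with 177 regions (18.9%) within 1000 bp of an H3K27ac peak and 199 (21.2%) over 50000 bp away. Regions at gene ends lay a median of 23056 bp from the nearest H3K27ac peak, those outside genes 17158.5 bp and those inside genes 5623 bp. Just inside the rule stood a region at Dusp19, 4 bp from H3K27ac, and one at Ptges, 13 bp away, followed by Itpkb, Batf3 and Ackr3 at 16 to 20 bp. These 5 regions held between 30 and 114 tags, each in 1 library. Just outside it, regions at Trib3, Dab2ip, Gsn, Eif2ak4 and Aven had 7 to 22 bp covered by H3K27ac and held 35 to 82 tags, also each in 1 library. Tags on both sides of the limit overlapped.

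At the level of genes, 328 of 2825 protein-coding genes (11.6%) had such a region at an end, while 1414 (50.1%) had an H3K27ac peak at an end. Of the 328, 84 also had an H3K27ac peak at one of their ends and 244 (8.64% of all genes) did not. No H3K27ac peak lay in the gene or 1000 bp either side for 186 of them, nor within 10000 bp for 145. Such a region lay within 1000 bp of a listed start in 238 of the 328 genes and not in 44, and the other 46 have no listed start. Among non-coding genes, 1 of 45 tRNA genes overlapped a region without H3K27ac, against 22 that overlapped a region with H3K27ac. For snoRNA genes the numbers were 2 and 22 of 154, and for lncRNA genes 138 and 326 of 1643. These counts are to be read against the 937 regions without H3K27ac and the 2733 with it.

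Of 17 cell cycle genes on the stretch, 7 had a region without H3K27ac at an end, and 6 of these had no H3K27ac at either end (all genes 11.6% and 8.64%). Nusap1, a spindle-binding protein, had 106 and 99 tags in young TSA and young vehicle and 111 and 153 in old TSA and old vehicle cells, in a region shared with Oip5. Bub1b, the checkpoint kinase BubR1, had 121 and 103 in young TSA and young vehicle and 68 and 124 in old TSA and old vehicle cells. Of the 7 genes, these 2 had a region without H3K27ac at an end that held a peak in every library. Kif14, a mitotic kinesin, had 90, 57 and 84 tags in young TSA, young vehicle and old vehicle cells, with no peak in old TSA. Mybl2, a transcription factor of S phase and mitosis, had 151 tags in young TSA cells, and no peak was listed in the other libraries. Bub1 (65 tags) also held a peak in young TSA alone, and Cenpf had 43 tags in young TSA and 27 in old TSA cells. A second Cenpf region at the same end, the one touched by the promoter window printed above (chr1:189688165-189688568), held 53 tags in young TSA cells alone. The Kif14 and E2f1 regions were not within 1000 bp of the listed start of the gene, and E2f1 also had H3K27ac at an end. All 17 genes had an H3K9/14ac region of either kind at an end (all genes 57.5%).

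Of 38 homeobox and other developmental regulators on the stretch, 16 had one in the gene or within 1000 bp (all genes 20.8%), and 7 had one at an end (all genes 11.6%). Alx4, a homeobox gene of limb and skull patterning, held 137 tags in young TSA and 205 in old vehicle cells, with no peak in young vehicle or old TSA cells and the nearest H3K27ac peak 178109 bp away. Lmx1b, a homeobox gene of dorsal limb patterning, held 63 tags in young TSA and 81 in old vehicle cells. Prox1, a homeobox gene of lymphatic endothelium, and Hoxd1 held peaks under TSA at both ages and none with vehicle, with 74 and 66 tags in young TSA and 62 and 56 in old TSA cells. Sp5, a target of Wnt signalling, did likewise with 84 tags in young TSA and 38 in old TSA cells. Hoxd13 held 70 tags in old vehicle cells alone. None of these 7 genes had a peak in all 4 libraries.

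Of 24 matrix genes, 5 had such a region at an end (all genes 11.6%), and 3 of these had no H3K27ac at either end (all genes 8.64%). Among the 5 were Col4a4 and Col4a3, neighbouring collagen IV genes. They share a region with 132 tags in young TSA, 80 in old TSA and 158 in old vehicle cells and no peak in young vehicle. Itga8, an integrin subunit, had 127 and 79 tags in young TSA and young vehicle and 64 and 135 in old TSA and old vehicle cells. Thbs1, the matrix protein thrombospondin-1, had 37 and 87 in young TSA and young vehicle cells, no peak in old TSA and 92 in old vehicle cells. Thbs1 also had H3K27ac at an end, and the nearest H3K27ac peak lay 529 bp from this region. Of 9 adipogenic genes 3 had a region without H3K27ac at an end (all genes 11.6%). They were Rxrg and, with H3K27ac also at an end, G0s2 and Rxra, with 24 to 46 tags and each in 1 library. Dpp4, a marker of FAP subsets and other stromal cells, was the one of 6 FAP identity genes, with 85 tags in young TSA and 126 in old vehicle cells. None of 9 senescence genes, 30 housekeeping genes or 10 acetylation enzymes and readers had such a region at an end (all genes 11.6%), and all 30 housekeeping genes had H3K27ac there (all genes 50.1%).

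The counts for other cell types and signalling are to be read against 11.6% of all 2825 genes. For lymphocytes 4 of 18 genes had such a region at an end (Cd28, Ikzf2, Cr2 and Cd40), for endothelium 1 of 10 (Dll4), for pericytes 1 of 7 (Rgs4), for muscle stem cells 1 of 6 (Cxcr4), for muscle fibres 1 of 18 (Casq1) and for Schwann cells 0 of 2. Spi1, the gene of the myeloid factor PU.1, held 117 tags in young TSA, 54 in old TSA and 73 in old vehicle cells, and Cd40 held 94 in old vehicle and 42 in young vehicle cells. The other lymphocyte genes held 26 to 30 tags in 1 library each. Of 27 neural genes 4 had one, led by Cacnb4, a calcium channel subunit, with 86 tags in young TSA, 189 in old TSA and 57 in old vehicle cells. Of 17 Wnt, Notch and Hedgehog genes 4 had one, Fzd5, Wnt10a, Psen2 and Dll4. Among 7 immediate early genes it was Dusp2, with 64 tags in old vehicle cells alone. Solute carrier genes had 10 of 52, led by Slc4a3, an anion exchanger, with 158 and 84 tags in young TSA and young vehicle and 161 and 207 in old TSA and old vehicle cells. Zinc finger (Zfp) genes had 3 of 18, and 0 of 314 olfactory receptor genes had one, 313 of which had no H3K9/14ac region at an end. Of the genes named in this paragraph, Ikzf2, Cxcr4, Casq1, Spi1, Dll4 and Fzd5 also had H3K27ac at an end. The part of other cell types in these peaks was not tested.

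The regions were listed in fewer libraries than the others. A single library held 58.1% (54.8 to 61.2) of regions without H3K27ac, against 25.1% (23.5 to 26.8) of the others. All 4 libraries held 140, or 14.9% (12.7 to 17.4), against 57.4% (55.5 to 59.3), so that they made up 8.19% of the 1709 regions listed in every library. Split by the tags of the highest library, the difference was smaller. From 50 to 99 tags, 4.15% (2.29 to 6.87) of regions without H3K27ac and 9.54% (7.29 to 12.2) of the others were listed in all 4, from 100 to under 200 tags 47.2% (39.9 to 54.4) and 57.3% (52.3 to 62.2), and at 200 tags or more 83.3% (68.6 to 93) and 98.2% (97.4 to 98.9). Under 50 tags the share was 0 in both. Of the 140, 103 (73.6%) lay at a gene end, close to the 76.5% of the others listed in every library. Regions in 1 list lay at a gene end in 22.6% (19.2 to 26.4) of cases without H3K27ac and 10.8% (8.57 to 13.4) with it. A peak was listed for 667 regions (71.2%) in young TSA, 250 (26.7%) in young vehicle, 300 (32%) in old TSA and 493 (52.6%) in old vehicle cells, against 81.7%, 69%, 69% and 76.8% of the others.

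The commonest combination was young TSA alone, with 308 regions (32.9%), and the next was old vehicle alone, with 159 (17%). Of regions with H3K27ac these combinations held 11.6% and 6.62%. Old TSA alone held 40 and young vehicle alone 37. In all, 545 regions (58.2%) had peaks in young TSA, in old vehicle or in both and in neither other library, against 22.5% of the others. Young TSA and old vehicle also had the longest H3K9/14ac lists, most tags and shortest H3K27ac lists. The part of list length in this pattern was not tested. Counts at equal list length are given below for pairs of libraries only.

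**Figure D3:**
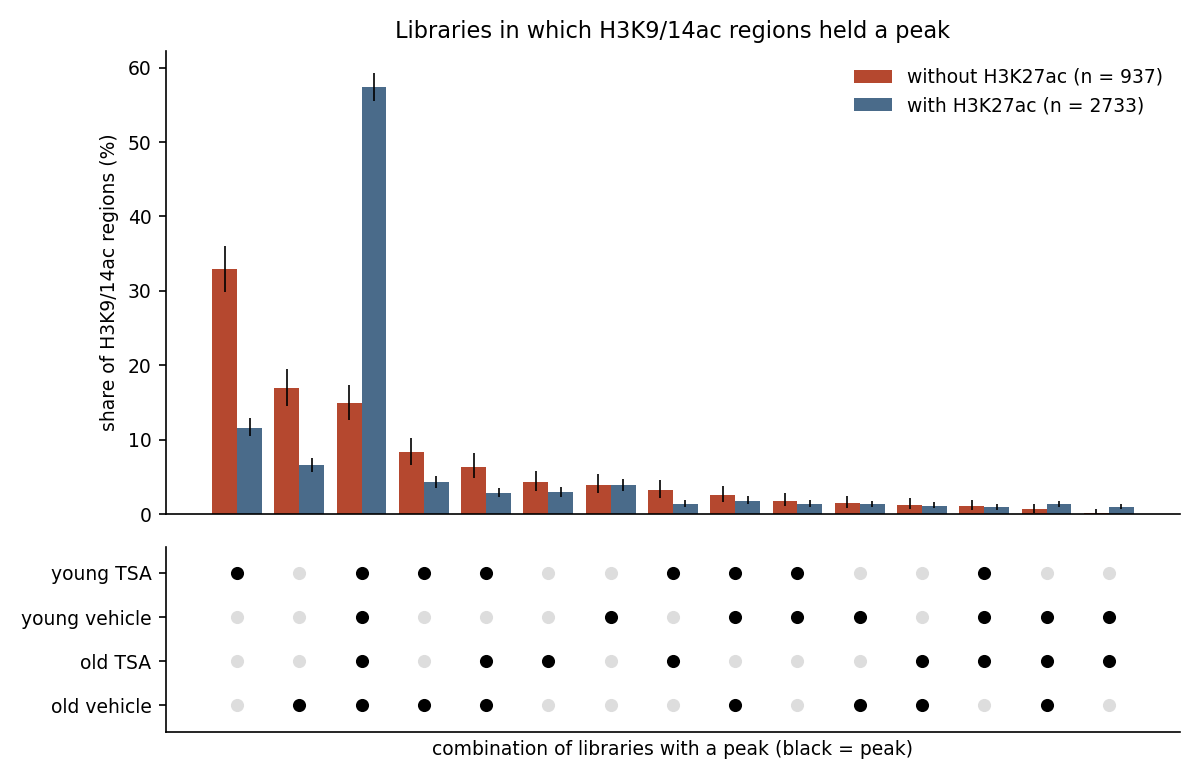
Share of H3K9/14ac regions (y axis, percent) in each combination of libraries that listed a peak, shown by black dots in the lower panel, for regions without H3K27ac (n = 937) and with it (n = 2733), with exact 95% intervals for counting error. Young TSA alone holds 32.9% of the regions without H3K27ac and 11.6% of the others, while all 4 libraries hold 14.9% and 57.4%.

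The strongest regions of each combination were modest in tags. For young TSA alone they were at Mybl2 (151 tags), Sema6d, a semaphorin gene (135), and Gata3 (134). For old vehicle alone they were at Rxra (190), Fmn2, an actin-nucleating formin (182), and Ccdc187 (166). Old TSA alone was led by Tmem74b (142), Grin1 with Lrrc26 (112) and a region 11176 bp from Apbb1ip (106), and young vehicle alone by Etl4 (101), a region 500301 bp from Epha4 (82) and Wdr76 with Mfap1a (64). Among regions of both young libraries, Esrrg, an oestrogen-related receptor gene, led with 145 tags in young TSA and 51 in young vehicle cells, ahead of Lzts3 and Lpin3. Among those of both old libraries, Speg, a kinase gene of striated muscle, led with 103 tags in old TSA and 143 in old vehicle cells, ahead of Bahd1 and Slc35c1. Regions of both TSA libraries were led by 2810459M11Rik, Erfe, the gene of the iron-regulating hormone erythroferrone, and Mpped2, with 64 to 116 tags in young TSA and 44 to 77 in old TSA cells. Regions of both vehicle libraries were led by Nostrin, Sec16a and Ildr2, with 87 to 111 tags in old vehicle and 36 to 72 in young vehicle cells. In young TSA with old vehicle, Alx4 was followed by Adamtsl2 (114 and 208 tags) and Mapk8ip1 (183 and 135). Old TSA with young vehicle held 2 regions, at Mgat4a and near Scn3a. A combination belongs to a single merged region and not to a locus, since a region close by can be listed in other libraries. The region beside that of Apbb1ip held 41 tags in old TSA and 78 in old vehicle cells. Beside the Gata3 region one held 89 in young TSA and 41 in old vehicle, and beside Mpped2 one held 55 and 47. How many named regions have such neighbours was not counted.

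In young mice, TSA cells listed many regions that vehicle cells did not. Of 726 regions with a peak in either library, 476 (65.6%, 62 to 69) had one under TSA alone and 59 (8.13%) under vehicle alone, with 191 in both. Among regions with H3K27ac the shares were 22.6% and 8.41%, and among all regions 32.5% and 8.34%. Where both libraries had a peak, relative tags, meaning the log2 ratio of tags minus its median over the 1709 regions listed everywhere (0.4 here), had a median of 0.21 without H3K27ac and -0.03 with it. Tags were summed over each library's own peaks, so relative tags here and below also depend on how wide those peaks were. Median peak widths without H3K27ac were 406 bp in young TSA, 402 in young vehicle, 550 in old TSA and 470.5 in old vehicle cells. The SE given below does not cover such differences in width. At least 2-fold higher relative tags under TSA were seen in 20 of the 191 regions (10.5%; all regions 2.94%) and at least 2-fold lower in 4 (2.09%; all regions 2.94%). Chst1 led the higher ones, with 178 tags under TSA and 31 under vehicle (relative log2 2.12, counting SE 0.28). Gpr176, an orphan receptor gene, had 230 and 53 (1.72, SE 0.22), and a region 62588 bp from Commd3 had 256 and 56 (1.79, SE 0.21). Ebf4 and Lzts3 completed the 5 highest. The lowest were Thbs1, with 37 under TSA and 87 under vehicle (-1.63, SE 0.28), and Polr1b, a subunit of RNA polymerase I, with 66 and 132 (-1.4, SE 0.22), followed by regions near Pou2f1 and Fcgr4 and in Mbd5.

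In old mice the order was turned round. Of 575 regions, 82 (14.3%, 11.5 to 17.4) had a peak under TSA alone and 275 (47.8%, 43.7 to 52) under vehicle alone. With H3K27ac the shares were 7.53% and 16.9%, and over all regions 8.89% and 23.2%. In the 218 regions listed in both, relative tags had a median of -0.14, with 14 at least 2-fold higher under TSA (6.42%; all 3.57%) and 7 at least 2-fold lower (3.21%; all 2.64%). Cacnb4 was highest, with 189 tags under TSA and 57 under vehicle (2.2, SE 0.22). Tgif2, a repressor of TGF-beta signalling, had 154 and 67 in a region shared with a neighbouring locus (1.67, SE 0.21). The next region in Tgif2 (chr2:156840974-156842162) ran the other way, with 141 tags under vehicle and no peak under TSA. The value for Tgif2 thus depends on where the merging split the locus. Rtn4rl2, a Nogo receptor family member, had 160 and 83 (1.42, SE 0.2). A region near Cxcr4 and one at Ppip5k1 completed the 5 highest. Creg2 was lowest, with 37 and 174 (-1.76, SE 0.26), ahead of a region 7034 bp from Cd82, a tetraspanin gene, with 56 and 196 (-1.34, SE 0.22), and of regions near Rabif, Chst14 and Commd3.

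With vehicle, old cells listed more of these regions than young ones. Of 559, 309 (55.3%, 51 to 59.5) had a peak in old cells alone and 66 (11.8%) in young cells alone, against 17.8% and 8.54% with H3K27ac and 25.1% and 9.18% of all. Among the 184 listed at both ages the median relative log2 was 0.49 (quartiles 0.18 to 0.87), against -0.03 (-0.27 to 0.24) with H3K27ac. At least 2-fold higher relative tags in old cells were seen in 37 (20.1%; all 4.91%) and at least 2-fold lower in 1 (0.543%; all 2.56%). The Commd3 region had 408 tags in old and 56 in young cells (2.52, SE 0.21), Rgs20 had 484 and 87 (2.13, SE 0.17), and Gpr176 had 297 and 53 (2.14, SE 0.22). Chst1 and Ebf4 were also among the 5 highest. Ube2t, the ubiquitin-conjugating enzyme of DNA crosslink repair, was the one more than 2-fold lower, with 75 and 133 (-1.17, SE 0.21). Next lowest were Rhbdd1, Rgs16, Zfp385b and Cenpl.

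With TSA, old cells listed fewer. Of 727 regions, 60 (8.25%) had a peak in old cells alone and 427 (58.7%, 55.1 to 62.3) in young cells alone, against 7.3% and 21.7% with H3K27ac and 7.52% and 30.3% of all. Where both had one, the median relative log2 was 0.12 over 240 regions, with 20 at least 2-fold higher in old cells (8.33%; all 4.05%) and 8 at least 2-fold lower (3.33%; all 1.85%). Rtn4rl2 had 160 tags in old and 50 in young cells (2.16, SE 0.23), followed by Gpr45, Cacnb4, Stau2 and Cadm3. The Stau2 region held 132 tags in old and 61 in young cells. A second region at the same end of Stau2 (chr1:16519712-16520216) held 85 and 113, in counts not scaled for depth. The Gata3 region described above was lowest (-1.51, SE 0.25), followed by Sapcd2, a regulator of spindle orientation, with 71 and 241 (-1.28, SE 0.19), and by Rgs16, Wfdc2 and Fam78a. Each library enters 2 of the 4 comparisons, so the values stand side by side and are not independent.

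**Figure D4:**
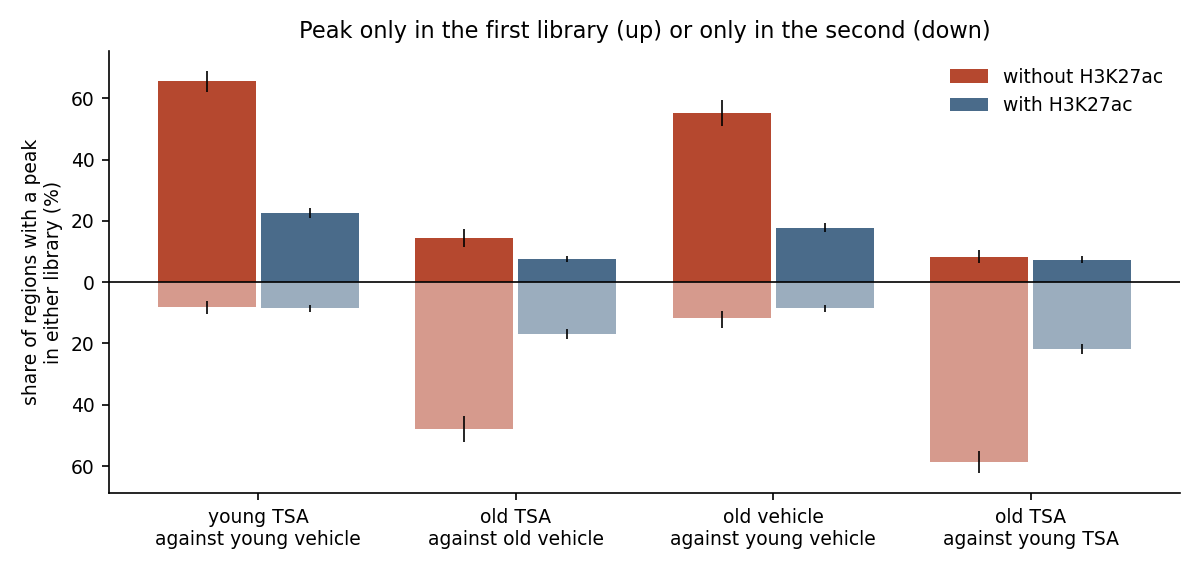
For each pair of conditions, the share of regions with a peak in either library (y axis, percent) that had it in the first-named library alone (above 0) or in the second-named alone (below 0), for regions without and with H3K27ac, with exact 95% intervals for counting error. Young TSA against young vehicle reaches 65.6% upward and 8.13% downward without H3K27ac, and old TSA against old vehicle 14.3% and 47.8%.

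The lengths of the lists moved with these counts, so the counts were repeated at equal length. With each H3K9/14ac list cut to the 2474 peaks with the most tags, 535 regions remained without H3K27ac. In young cells 175 then had a peak under TSA alone and 30 under vehicle alone. In old cells the numbers were 115 under TSA alone and 125 under vehicle alone, so the numbers for old cells differed little at equal length. With vehicle, 164 had a peak in old cells alone and 48 in young cells alone, and with TSA 94 in old cells alone and 133 in young cells alone. Strength moved with them too. Of regions with 200 tags or more in their highest library, 11.9% (3.98 to 25.6; n = 42) without H3K27ac and 1.15% (0.645 to 1.89; n = 1305) with it had a peak in young TSA and none in young vehicle cells. Under 50 tags the shares were 65.5% and 48.4%. For a peak in old vehicle and none in old TSA cells, the shares without and with H3K27ac were 17.3% and 18.7% under 50 tags, 49.9% and 35.6% from 50 to 99, 21.2% and 20.8% from 100 to under 200, and 7.14% and 0.69% at 200 tags or more. The intervals overlapped under 50 tags and from 100 to under 200.

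**Figure D5:**
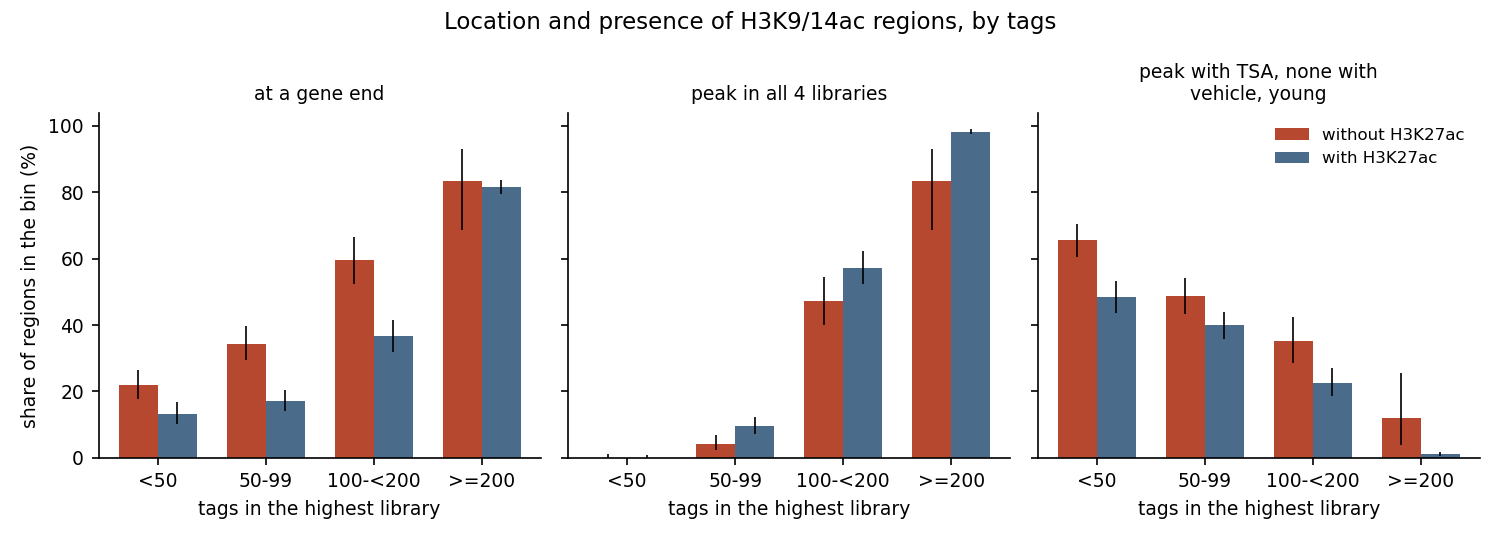
Share of regions (y axis, percent) at a gene end, with a peak in all 4 libraries, or with a peak in young TSA and none in young vehicle cells, by tags in the highest library (x axis, counts), without and with H3K27ac, with exact 95% intervals for counting error. At 100 to under 200 tags 59.6% of the regions without H3K27ac and 36.7% of the others lie at a gene end, and at 200 tags or more 83.3% and 81.6%.

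Regions far from genes were a minority. Of the 937, 119 (12.7%, 10.6 to 15) lay over 10000 bp from any protein-coding gene, against 8.38% of the others. The Commd3 region (chr2:18608035-18609847) was the strongest, with 256 and 56 tags in young TSA and young vehicle and 140 and 408 in old TSA and old vehicle cells. A region 40826 bp from Ccdc32 held 163 and 127 in young TSA and young vehicle and 99 and 197 in old TSA and old vehicle cells. A region 20775 bp from Mapkap1 held 91 and 98 in young TSA and young vehicle and 82 and 162 in old TSA and old vehicle cells. All 3 had a peak in every library and lay 19555 to 41246 bp from the nearest H3K27ac peak.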

How the data were processed

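H3K9/14ac and H3K27ac were immunoprecipitated from FAP chromatin, with 1 library per mark and condition (8 of 12 samples; the 4 inputs were not used). Per the file headers, each list came from HOMER's differential peak program with a library set against itself. The deposited tag count per peak is a whole number and not normalized. The deposited fold ratio is 1 and the score 0 for every peak, and p-values deposited by the authors run from 0.502 to 0.531. None of these was used. Each list breaks off within 1 incomplete line, hence the stretch, which holds 12.5% to 12.8% of the peaks counted in the H3K9/14ac headers. Tools named, without roles, in the submitters' processing notes are HOMER, MACS2, Bowtie 0.12.7, TopHat2 2.0.9, HTSeq 0.6.1p1 and DESeq2, with GRCm38 as the build.

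Regions, shares with exact Clopper-Pearson 95% intervals and distances were computed with Python 3.11.15, pandas 2.3.3 and SciPy 1.17.1, and interval and overlap code was tested on simulated data. Tags of a region are summed, for each library, over that library's own peaks in the region. Genes and promoters came from RefSeq tables of GRCm38.p6. Of 2825 protein-coding genes, 2402 have a promoter entry. Named regions are those with the most tags in sum, per combination of libraries and far from genes, the widest, those nearest the limit of the rule, and the 5 with the largest relative tag difference per comparison and direction (at least 100 tags). Each of 19 gene lists names up to 4 genes by tags, and further genes were named after their values were seen. Some results of the macrophage and interferon response lists are not reported here. The regions and lists were chosen with earlier results of these data known. Alternatives were another overlap rule, shorter or equal lists, other merging, each library left out and each chromosome alone.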

Additional observations from a re-analysis of the deposited data

Results flagged for a closer look

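In some regions without H3K27ac, listing under TSA and vehicle ran in opposite directions at the 2 ages. In 78 of them a peak was listed in young TSA and not in young vehicle cells, and in old vehicle and not in old TSA cells. The reverse held for 2, at Mgat4a and near Scn3a. These are 8.32% and 0.213% of the 937 regions, against 4.28% (117) and 0.988% (27) of the 2733 with H3K27ac. The difference between ages was not tested, since each condition has 1 library. Alx4 (137 tags in young TSA and 205 in old vehicle cells) led the 78 regions. The lists of young TSA and old vehicle were also the longest. With lists of equal length, 115 regions without H3K27ac had a peak in old TSA alone and 125 in old vehicle alone, against 175 in young TSA alone and 30 in young vehicle alone.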

How the results depend on the processing

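Of the alternative values, 23 stayed close to those reported, 23 moved and 4 reversed. The number of regions without H3K27ac was 937, and leaving out 1 library gave 645 (without H3K9/14ac young TSA) to 1028 (without H3K27ac old TSA). Chromosome 1 alone gave 408 and chromosome 2 alone 529. With the 50% of each H3K9/14ac list that held the most tags there were 155 regions, 65.8% at a gene end, a median width of 1005 bp, 7.74% in all 4 lists, 98 with TSA alone in young, 11 with TSA alone in old, 79 in old alone with vehicle and 10 in old alone with TSA. With lists of equal length these were 535, 50.1%, 664 bp, 23.4%, 175, 115, 164 and 94. With the same cut of the H3K27ac lists there were 1415 regions, with a median width of 468 bp, 23.8% in all 4 lists and 101 in old alone with TSA. Counting H3K27ac within 1000 bp as overlap moved the median width to 453.5 bp, and gene ends of 2500 bp moved the gene end share to 47.9%. By tags of the highest library the gene end shares were 21.9%, 34.4%, 59.6% and 83.3% (under 50, 50 to 99, 100 to under 200, and 200 or more), each above that of regions with H3K27ac, where the pooled share was below it. The cause was not tested for the last, and the shorter lists change the counts by construction. Without total library depths or replicates, a region listed in 1 library near that library's lowest listed count (20 to 27 tags) cannot be told from one just missed in the others. No paired analysis was possible because each condition has 1 library.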

Other observations

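Other genes, outside the cell cycle list and picked after their values were seen, also had regions without H3K27ac. Aspm, a spindle pole protein, held 183 and 132 tags in young TSA and young vehicle and 72 and 161 in old TSA and old vehicle cells. Knstrn, a kinetochore and spindle protein, held 146 and 107 in young TSA and young vehicle and 102 and 167 in old TSA and old vehicle cells. Ube2t, an enzyme of DNA crosslink repair, held 183 and 133 in young TSA and young vehicle and 63 and 75 in old TSA and old vehicle cells. All 3 regions had a peak in every library. Since these genes were picked for having such a region, they are no count of a group.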
